A study of Mus musculus with 18 samples.

Results

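Heparan sulfate sulfatases, syndecans and glypicans were followed in cartilage of the mouse knee after rupture of the anterior cruciate ligament (ACL). The 10 genes were chosen by name out of 49184 genes to which transcripts could be summed, with earlier results of these data known. They comprise 2 extracellular sulfatases (Sulf1 and Sulf2), 4 syndecans (Sdc1, Sdc2, Sdc3 and Sdc4) and 4 glypicans (Gpc1, Gpc3, Gpc4 and Gpc6). All are annotated as protein coding, and gene positions are those of GENCODE on GRCm38. All 10 passed the filter on low counts in every comparison. The 18 RNA-Seq libraries were made from femoral condyle cartilage of 12-week-old male C57Bl/6J wild-type mice, and no animal carried an engineered allele. A single mechanical load ruptured the ACL of the right knee, and the uninjured left knee served as the contralateral control. There were 3 injured and 3 contralateral libraries at day 1, 3 injured and 3 contralateral libraries at day 7, and 6 libraries of naïve mice that were never loaded and were collected with the day 7 knees. The loaded mice were anaesthetised and given buprenorphine, and whether the naïve mice were too is not given in the sources used here. Each library pooled several mice. By the schematic of the study's design this was 2 mice per library at day 1 and 4 at day 7. The schematic gives the partial loss of day 7 cartilage as the reason for pooling 4. The 6 naïve mice gave left and right knees pooled apart, 2 knees per naïve library, so that naïve libraries share mice. Day 7 injured and naïve libraries thus also differ in the size of their pools. The series' own design text gives 4 mice for every library, and medial caps of the knee where the methods and sample labels give the femoral condyle. P-values therefore measure the spread between libraries, which among naïve libraries includes left and right knees of the same mice. Libraries of shared mice were treated as independent, although the 6 naïve libraries are not 6 independent pools of mice.

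Heparan sulfate is a long sulfated sugar chain that is built on a core protein in the Golgi and presented at the cell surface or in the matrix. Syndecans carry these chains on proteins that span the membrane, glypicans carry them on proteins held in the membrane by a lipid anchor, and Sulf1 and Sulf2 are secreted enzymes that remove 6-O-sulfate groups from finished chains. The pattern of sulfation sets which growth factors the chains hold, among them fibroblast growth factors and BMPs, and in cartilage the chains of the pericellular matrix store such factors around chondrocytes.

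Depth was 16074762 to 41794005 estimated counts per library, with a median of 25465706. Levels of a gene across libraries are given as CPM, counts scaled to a common library size with the TMM method. Levels between genes and sums over a family are given as TPM, which divides by transcript length and carries no TMM scaling. The labels call the cells chondrocytes, and none of the 10 listed chondrocyte markers was at or under 3 counts in every library, with Col2a1 the most abundant at a mean of 3553 CPM. Markers of other tissues were also present, since the erythroid list summed to 32999 CPM and the list of neutrophil and marrow myeloid genes to 11637 CPM in naïve libraries. In such bulk samples, fewer cells of a type and less RNA per cell cannot be told apart.

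Day 7 contralateral replicate 1 stood apart from its group. Its 10 most abundant genes held 42.5% of the counts, against 16.6% to 29.8% in the other libraries. The chi-square per degree of freedom over genes was 319 and 314 against its group mates, whereas every other pair of libraries within a group gave 18.4 to 83.3. No pair was close enough to be the same library deposited again. The calls of the 10 genes and the counts of called list genes that rest on the day 7 contralateral group are given with and without that library. Because few of its reads mapped, 1 ACL library was left out by the study, and which one is not given in the sources used here.

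Differences were tested with edgeR's quasi-likelihood test over all genes that passed the filter, with a Benjamini-Hochberg false discovery rate (FDR). A gene counted as called where its FDR was 0.05 or less and it changed by 1.5-fold or more. In day 7 injured against naïve cartilage, 9 of the 10 genes were called higher and none lower. Of all 21129 genes tested, 10.4% were called higher and 6.11% lower. Over the 10 genes the median log2 fold change was 1.05, and over all tested genes it was −0.04. The exception was Sdc3. The other 9 did not overlap between the groups, their levels at day 7 being higher in each injured library than in any naïve one, as were those of 17.4% of all genes tested.

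**Figure D1:**
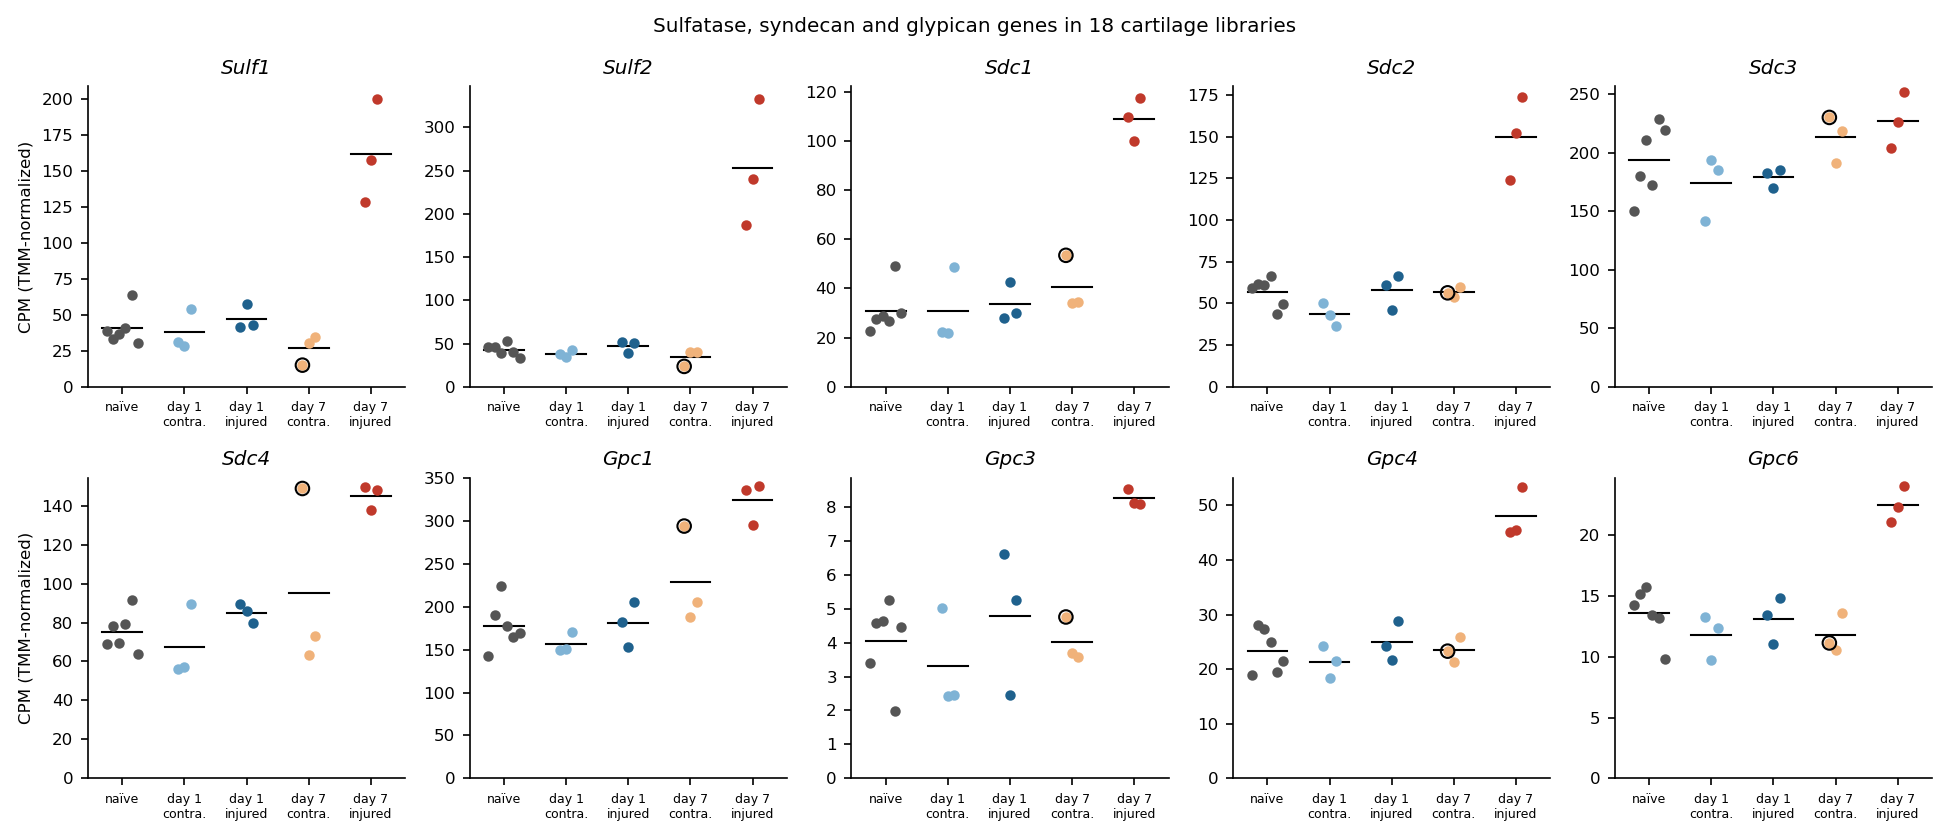
Level of each of the 10 genes in each library, as TMM-scaled CPM on a linear axis starting at 0 (points are libraries, bars are group means, and the ringed point is day 7 contralateral replicate 1). The day 7 injured libraries lie above all 6 naïve libraries for every gene but Sdc3, and the ringed library reaches the day 7 injured range for Sdc4.

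The extracellular sulfatases showed the largest changes of the 10 genes. Sulf2 stood at 187, 241 and 333 CPM in the 3 day 7 injured libraries. The 6 naïve libraries ran from 32.8 to 53.5 CPM with a median of 42.6. The groups did not overlap, and Sulf2 was 5.999-fold higher (log2 fold change 2.58, SE 0.161, FDR 2.56e-08). At day 1 the injured libraries stood at 39.7, 50.3 and 52.2 CPM and the contralateral ones at 34.1, 38.1 and 43.0 CPM. These day 1 values lay inside the naïve range. The day 7 contralateral libraries stood at 23.6, 40.0 and 40.8 CPM, the first of these being replicate 1.

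Sulf1, on the plus strand at chr1:12692277-12861192, stood at 128, 158 and 199.5 CPM in day 7 injured libraries. Naïve libraries ran from 30.1 to 64.0 CPM with a median of 37.6. Again no library overlapped, and Sulf1 was 4.04-fold higher (log2 fold change 2.01, SE 0.232, FDR 1.08e-05). The day 1 injured libraries stood at 41.4, 43.2 and 57.6 CPM and the day 1 contralateral ones at 28.4, 30.8 and 54.1 CPM. The day 7 contralateral libraries stood at 15.04, 30.4 and 34.9 CPM, so that only the day 7 injured group had every library outside the naïve range.

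Per transcript length, both sulfatases together rose from 12.1 TPM (SD 2.36, n = 6) in naïve to 45.2 TPM (SD 16.8, n = 3) in day 7 injured libraries. The day 1 injured libraries stood at 17.7, 17.7 and 22.8 TPM, each above the naïve range of 9.36 to 15.9 TPM. The day 1 contralateral libraries lay inside that range. Higher TPM at day 1 was not confined to the sulfatases. Mean TPM of every syndecan and glypican of the set was also higher in day 1 injured than in naïve libraries. For instance, Sdc3 stood at 28.7 against 21.3 TPM and Gpc1 at 35.7 against 23.8 TPM. In CPM neither sulfatase was above its naïve range at day 1. TPM carries no TMM scaling, and this difference between the scales was not tested. Sulf2 made up 44.7% to 63.6% of the summed sulfatase TPM in naïve libraries and 62.8% to 68.5% in day 7 injured ones, and these ranges overlapped slightly. Estimates for single transcripts of a gene share reads and are given as a description. Sulf2-207 and Sulf2-201 held 43.7% and 43.0% of the Sulf2 counts over all libraries, and in naïve libraries Sulf2-207 varied from 24.9% to 65.2%. In Sulf1, Sulf1-201 held 42.6% to 61.5% of the counts in naïve and 29.4% to 40.3% in day 7 injured libraries, without overlap. Sulf1-202 held 12.1% to 37.8% and 37.3% to 43.9% in these groups, which overlapped.

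Sulf2 has 2 entries in the RefSeq table of promoters (GRCm38.p6). Both are on the minus strand of chromosome 2, the first upstream of the gene at chr2:166073089-166155663 and the second within that span, upstream of the start of Sulf2-201. They are shown because Sulf2 changed most and because annotated starts within 150 bases of each account for 54.8% and 43.0% of the Sulf2 counts. Capitals mark a TATA box (TATAAA) and a GC box (GGGCGG, here on the opposite strand) in the first, and the second holds none of the letters searched in the bases printed. A CCAAT box of the second window, 223 bases before the start, lies in the bases that are not printed. The bases are those before the start, cut where an annotated exon begins.

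Sulf2 at chr2:166155684-166155933: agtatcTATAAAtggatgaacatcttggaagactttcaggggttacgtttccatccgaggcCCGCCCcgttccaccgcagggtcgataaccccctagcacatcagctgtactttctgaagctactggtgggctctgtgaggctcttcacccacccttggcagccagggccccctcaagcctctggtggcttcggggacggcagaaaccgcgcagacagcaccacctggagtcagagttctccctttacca

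Sulf2 at chr2:166155286-166155502: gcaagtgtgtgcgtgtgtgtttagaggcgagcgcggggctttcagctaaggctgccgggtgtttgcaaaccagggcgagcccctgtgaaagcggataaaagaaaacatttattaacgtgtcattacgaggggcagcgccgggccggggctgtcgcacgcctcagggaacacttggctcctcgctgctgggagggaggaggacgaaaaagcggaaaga

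Over 32851 promoters in the table, TATAAA occurred in 12.4% and GGGCGG in 32.7% of the windows of 250 bases before the start, counting both strands. CCAAT occurred in 33.8% and the AP-1 letters TGACTCA in 4.46%. Of the 10 genes, 6 had an entry, 7 entries in all, and none held TGACTCA in its window. Their GC content was 57.2% to 76.4%, and the median of all promoters was 52.4%. A match of letters is a description of the sequence only.

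Of the 4 syndecans, 3 rose in day 7 injured cartilage. Sdc1, which binds growth factors and is best known from epithelia and plasma cells, stood at 99.8, 109.8 and 118 CPM against 22.6 to 49.02 CPM in naïve libraries (median 28.2). It was 3.58-fold higher (log2 fold change 1.84, SE 0.251, FDR 5.58e-05), and the groups did not overlap. Sdc2, a syndecan of mesenchymal cells (chr15:32920723-33034935, plus strand), stood at 124, 152 and 173 CPM against 43.8 to 66.2 CPM (median 60.1) and was 2.67-fold higher (log2 fold change 1.42, SE 0.143, FDR 2.96e-06). Sdc4, which acts with integrins at focal adhesions (chr2:164424247-164443887, minus strand), stood at 138, 148 and 149.8 CPM against 63.6 to 91.6 CPM (median 73.9) and was 1.96-fold higher (log2 fold change 0.97, SE 0.137, FDR 8.07e-05). In both genes the groups were again apart.

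Sdc3, the long syndecan of nerve and developing cartilage, did not pass the test. It stood at 204, 226 and 251 CPM in day 7 injured libraries against 151 to 229 CPM in naïve ones (median 195). The groups overlapped, and the fold change of 1.19 had an interval on the log2 scale of −0.01 to 0.51 (FDR 0.168). Sdc3 was the most abundant syndecan per length in naïve libraries at 21.3 TPM (SD 4.81), followed by Sdc4 at 17.4 TPM (SD 2.69) within overlapping ranges. In day 7 injured libraries it stood at 20.6 TPM (SD 5.20), below Sdc4 at 27.5 TPM (SD 2.29), again with overlapping ranges.

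The make-up of the syndecan family moved with these values. Sdc3 held 35.4% to 45.5% of the summed syndecan TPM in naïve and 21.8% to 25.6% in day 7 injured libraries. Sdc1 held 9.79% to 17.1% in naïve and 20.3% to 21.3% in day 7 injured libraries. Neither gene's shares overlapped between the groups. Sdc2 went from a mean share of 16.3% to 21.8% with overlapping ranges, and Sdc4 held 32.6% and 33.1%. A share falls when other members rise, and no test was made of these shares.

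**Figure D2:**
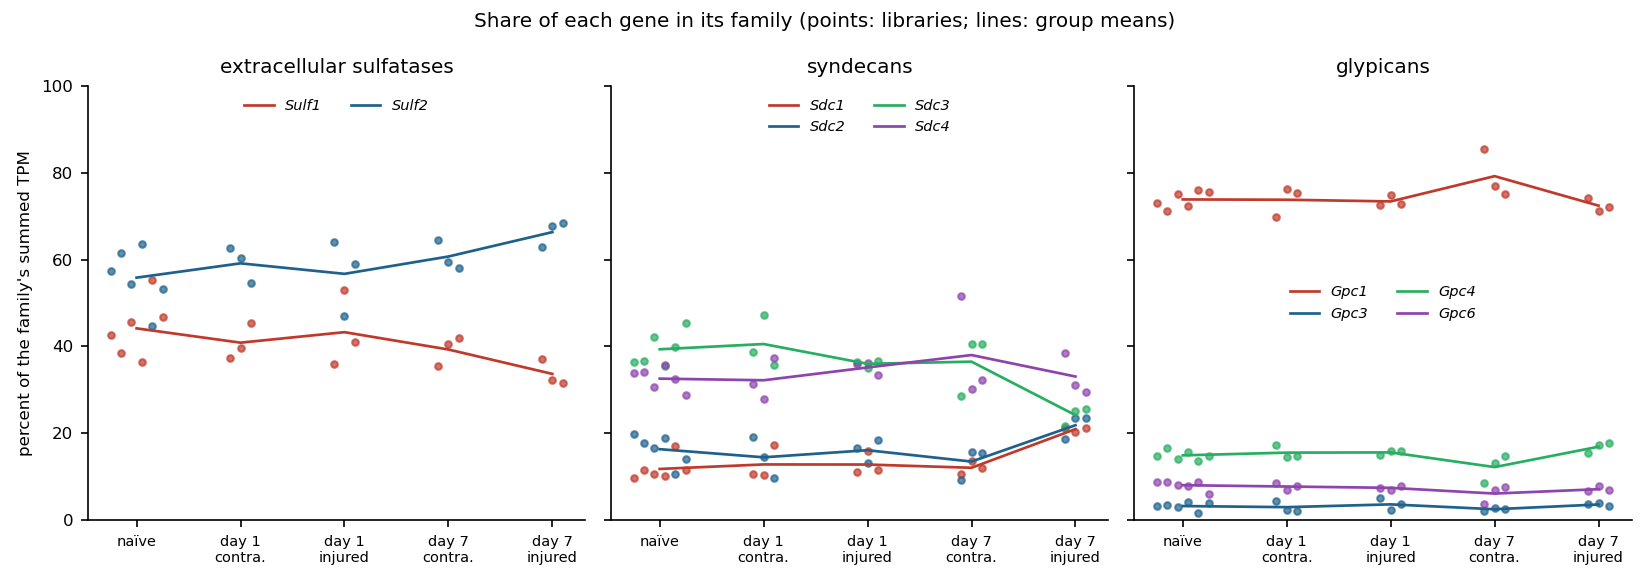
Percent of the summed TPM of its family held by each gene, for sulfatases, syndecans and glypicans (points are libraries, lines join group means). The share of Sdc3 is lowest in the day 7 injured libraries at 21.8% to 25.6%, while Gpc1 holds a mean of 73.9% of the glypicans in naïve and 72.4% in day 7 injured libraries.

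Promoter windows of Sdc1, which rose, and Sdc3, which did not pass the test, are shown side by side. Both lie on the plus strand, of chromosome 12 upstream of the gene at chr12:8771323-8793715 and of chromosome 4 upstream of the gene at chr4:130792537-130826319. Capitals mark GC boxes (GGGCGG or CCGCCC) and, in Sdc1, a CCAAT box on the opposite strand (ATTGG). Each window of 250 bases held 3 GC boxes, 1 of which in Sdc1 lies in the exonic bases that are not printed.

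Sdc1 at chr12:8771182-8771322: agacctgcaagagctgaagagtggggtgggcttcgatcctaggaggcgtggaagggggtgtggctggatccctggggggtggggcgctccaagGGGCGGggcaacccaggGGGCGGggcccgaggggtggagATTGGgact

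Sdc3 at chr4:130792287-130792536: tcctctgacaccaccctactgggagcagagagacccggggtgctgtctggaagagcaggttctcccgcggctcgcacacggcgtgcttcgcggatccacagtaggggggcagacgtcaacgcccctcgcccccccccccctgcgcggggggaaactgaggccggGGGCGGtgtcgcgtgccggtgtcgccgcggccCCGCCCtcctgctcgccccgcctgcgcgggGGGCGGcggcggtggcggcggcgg

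All 4 glypicans were called higher in day 7 injured than in naïve cartilage, by 1.68-fold to 2.08-fold. Gpc1, the most abundant of the 10 genes per length in naïve libraries at 23.8 TPM (SD 4.70) and on the plus strand at chr1:92831645-92860779, stood at 295, 336 and 341 CPM in day 7 injured libraries. Naïve libraries ran from 142 to 225 CPM with a median of 173, so that Gpc1 was 1.84-fold higher (log2 fold change 0.88, SE 0.12, FDR 5.38e-05). Gpc4 (chrX:52053021-52165252, minus strand) stood at 45.1, 45.5 and 53.4 CPM against 18.9 to 28.1 CPM (median 23.2) and was 2.08-fold higher (log2 fold change 1.06, SE 0.133, FDR 2.54e-05). In neither gene did any library overlap.

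Gpc6, which spans the longest stretch of the 10 genes (chr14:116925315-117976544, plus strand), stood at 21.1, 22.3 and 24.1 CPM against 9.84 to 15.7 CPM (median 13.9), and was 1.68-fold higher (log2 fold change 0.74, SE 0.137, FDR 0.000805). Gpc3, an inhibitor of hedgehog signalling and growth that neighbours Gpc4 (chrX:52272426-52613950, minus strand), was the least abundant of the 10 genes at 1.02 TPM (SD 0.29) in naïve libraries, where it had 50 to 150 counts. It stood at 8.09, 8.11 and 8.54 CPM against 1.99 to 5.25 CPM (median 4.51), a 2.06-fold difference (log2 fold change 1.04, SE 0.308, FDR 0.0191). The call of Gpc3 was lost when any 1 of the 3 day 7 injured libraries was left out (FDR 0.0501 to 0.0548). Gpc1 held a mean of 73.9% of the summed TPM of these glypicans in naïve and 72.4% in day 7 injured libraries. Of the glypicans outside the set, Gpc2 was not called (log2 fold change 0.13) and Gpc5 had too few counts to be tested.

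Ordered by level per length, naïve libraries had Gpc1, Sdc3, Sdc4, Sdc2, Sulf2, Sdc1, Sulf1, Gpc4, Gpc6 and Gpc3, from 23.8 to 1.02 TPM. The ranges of neighbours overlapped except between Sdc4 and Sdc2, between Gpc4 and Gpc6 and between Gpc6 and Gpc3. Gpc1 was above 95.3% and Gpc3 above 58.7% of the genes detected in naïve libraries. In day 7 injured libraries Sulf2 stood behind Gpc1 at 30.3 TPM (SD 12.3), where it had been the fifth in naïve libraries at 6.69 TPM (SD 1.13). Its range in day 7 injured libraries overlapped those of Gpc1, Sdc4, Sdc3, Sdc2, Sdc1 and Sulf1.

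**Figure D3:**
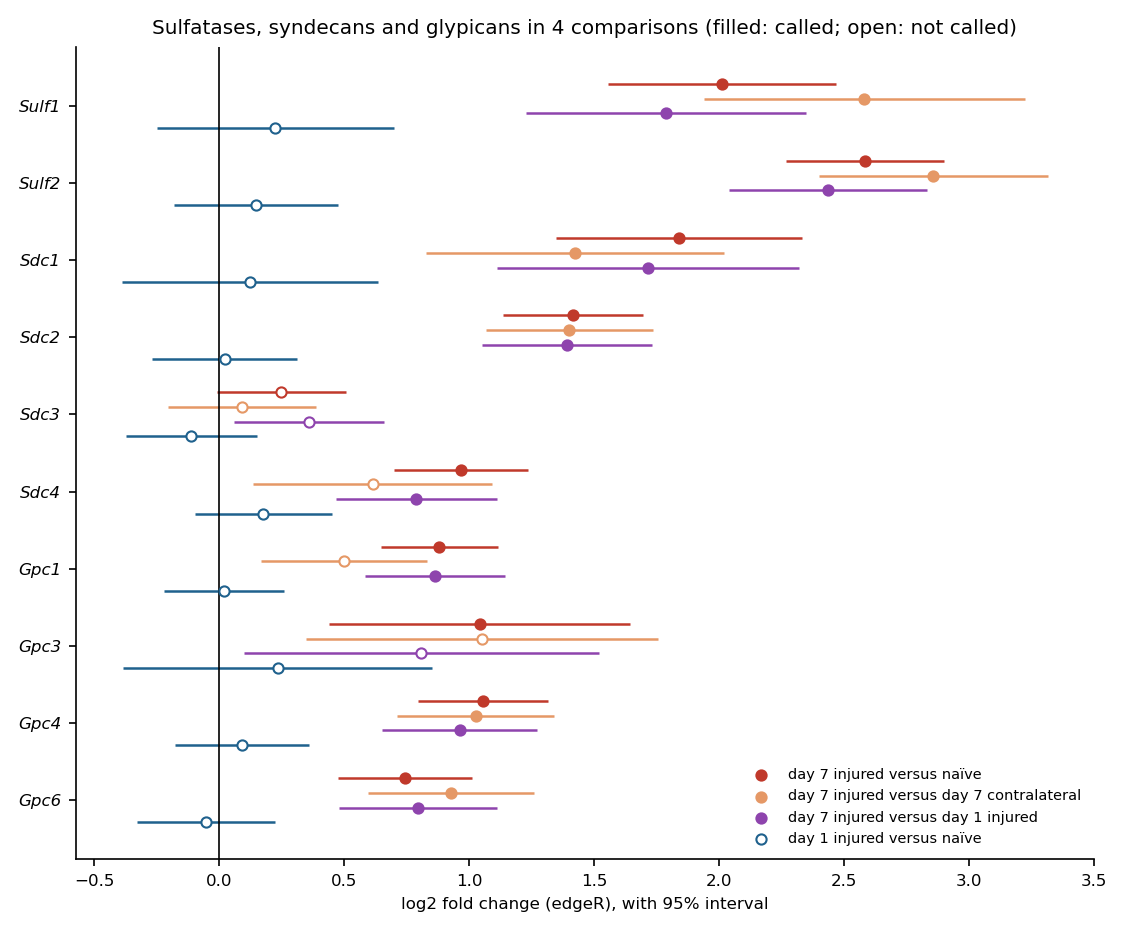
Log2 fold change of each gene with its 95% interval in 4 comparisons of the study's groups (filled points are called, open points are not). Day 7 injured cartilage gives intervals above 0 against naïve cartilage for every gene but Sdc3, and no gene is called at day 1 against naïve cartilage.

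Against the contralateral knee at day 7, 6 of the 10 genes were called higher, where 9.33% of the 21262 genes tested were called higher and 3.23% lower. Sulf2 was 7.25-fold higher (log2 fold change 2.86, SE 0.234, FDR 2.79e-07) and Sulf1 5.99-fold higher (log2 fold change 2.58, SE 0.328, FDR 2.53e-05). Sdc1 (2.68-fold), Sdc2 (2.64-fold), Gpc4 (2.04-fold) and Gpc6 (1.90-fold) were called as well. Gpc1 passed the FDR at 0.0479 but not the fold limit (1.41-fold), and Gpc3 (2.07-fold, FDR 0.0505), Sdc4 (1.53-fold, FDR 0.0914) and Sdc3 (1.07-fold, FDR 0.73) were not called. The median over the 10 genes was 1.04 on the log2 scale and that of all tested genes was −0.05.

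The library that stood apart decided part of this count. Sdc4 was 149 CPM in day 7 contralateral replicate 1, inside the range of the injured knees, and 63.4 and 73.0 CPM in the other two contralateral libraries. Gpc1 was 294 CPM there and 188 and 205 CPM in the others. Without replicate 1, 8 of the 10 genes were called, and Sdc4 (log2 fold change 1.11, FDR 0.00048) and Gpc1 (0.74, FDR 0.0033) were added. Of the 21808 genes then tested, 9.31% were called higher and 1.99% lower. Sulf1 and Sulf2 were then 2.33 and 2.67 higher on the log2 scale, and Gpc3 (FDR 0.053) and Sdc3 (FDR 0.555) were not called.

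Between injured knees at day 7 and day 1, 8 of the 10 genes were called higher, where 9.04% of 21129 tested genes were called higher and 6.38% lower. For all 10 genes the day 7 libraries lay above every day 1 injured library, as did 22.8% of all genes tested. The largest differences were those of Sulf2 (5.42-fold, FDR 1.38e-06), Sulf1 (3.45-fold, FDR 0.000433), Sdc1 (3.28-fold, FDR 0.00106) and Sdc2 (2.63-fold, FDR 5.13e-05). Sdc4, Gpc1, Gpc4 and Gpc6 were 1.73-fold to 1.95-fold higher. Sdc3 (1.28-fold, FDR 0.0993) and Gpc3 (1.75-fold, FDR 0.116) were not called. This comparison and the other comparisons of day 7 injured cartilage share the same 3 injured libraries, so that their values are not independent of each other.

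At day 1 none of the 10 genes was called. Between injured and naïve cartilage at day 1 the log2 fold changes ran from −0.11 (Sdc3) to 0.23 (Gpc3), and the intervals of Sulf1 (−0.25 to 0.70) and Sulf2 (−0.18 to 0.48) show what the 3 libraries could resolve. Between injured and contralateral knees at day 1 they ran from 0.04 (Sdc3) to 0.54 (Gpc3, interval −0.18 to 1.26). The normal intervals of Sdc2 (0.07 to 0.75, FDR 0.755) and Sdc4 (0.0068 to 0.65, FDR 0.763) lay above 0 without passing the test. By edgeR's quasi-likelihood test the unadjusted p was 0.0305 for Sdc2 and 0.0637 for Sdc4. In both of these comparisons 0% of the 21129 genes tested were called by edgeR, 959 and 1383 genes had an unadjusted p under 0.05, DESeq2 called 15 and 0 genes, and limma called 0 in each. In CPM the groups overlapped for all 10 genes in both comparisons, and lay apart for 2.08% and 11.2% of all genes tested. In TPM, Sdc4 stood at 25.4, 26.5 and 31.7 in day 1 injured and 14.5 to 21.8 in naïve libraries, without overlap. The summed syndecan TPM of these groups also lay apart, at 70.6 to 94.9 against 42.4 to 67.2. Gpc4 was above naïve in TPM as well. Against the day 1 contralateral libraries, Sdc3, Sdc4 and Gpc1 lay above in TPM. The other genes overlapped, and no test was made of TPM. The share of all genes that lay apart in TPM was not determined, so these separations have no background to be set beside. TPM carries no TMM scaling, and the mean TPM of all 10 genes was higher in day 1 injured than in naïve libraries.

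None of the 10 genes was called between contralateral and naïve knees. At day 1 the log2 fold changes ran from −0.39 (Sdc2, FDR 1) to 0.01 (Sdc1), and 0% of all genes were called by edgeR (554 genes with an unadjusted p under 0.05, 2 called by DESeq2 and 0 by limma). At day 7 they ran from −0.58 (Sulf1, FDR 0.33) to 0.40 (Sdc1, FDR 0.464), and 0% of 21262 genes were called by edgeR (3220 with an unadjusted p under 0.05, 31 called by DESeq2 and 0 by limma). Without day 7 contralateral replicate 1, Sulf1 was −0.31 and Sdc1 0.16 on this scale, no gene was called and 1201 had an unadjusted p under 0.05. All 10 genes overlapped between the groups at both days, and 1.38% (day 1) and 4.33% (day 7) of all genes tested did not.

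Whether the effect of injury differed between the days was tested directly, as the difference between injured and contralateral knees at day 7 minus that at day 1. Sulf2 (log2 difference 2.56, SE 0.314, FDR 0.000122), Sulf1 (2.26, SE 0.443, FDR 0.00672) and Sdc2 (0.99, SE 0.238, FDR 0.0245) were called. These are 3 of the 10 genes, where 3.53% of 21262 tested genes were called higher and 0.245% lower. Gpc4 (0.80, FDR 0.0543), Gpc6 (0.78, FDR 0.0802) and Sdc1 (1.31, FDR 0.103) did not pass, nor did Gpc3, Gpc1, Sdc4 and Sdc3 (0.51 to 0.05). DESeq2 called Gpc4 (FDR 0.0243), Gpc6 (FDR 0.0421) and Sdc1 (FDR 0.0456) as well, and limma-voom called Gpc4 (FDR 0.0464). Without day 7 contralateral replicate 1 the same 3 genes were called, at 2.37, 2.01 and 1.01 on the log2 scale, where 4.09% of 21808 tested genes were called higher and 0.321% lower. The call of Sdc2 was lost when any 1 of 7 libraries was left out (FDR 0.0509 to 0.0864).

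The other genes of the pathway were described by lists of what they do. Of 95 list genes, 90 could be tested in each comparison. Between day 7 injured and naïve cartilage, 29 of the 90 were called higher and 0 lower, beside 10.4% and 6.11% of all genes tested, and their median log2 fold change was 0.35. The lists and their members were chosen with earlier results of these data known, and no test of a list was made.

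Among other proteins that carry heparan sulfate, 3 of 10 tested genes were higher (list median 0.48 on the log2 scale). Col18a1, whose product is a basement membrane collagen, ran from 174 to 238 CPM in day 7 injured and from 25.9 to 73.3 CPM in naïve libraries (log2 fold change 2.38, FDR 0.000112). Hspg2, which encodes the pericellular proteoglycan perlecan, was at 1149 CPM (SD 112) against 438 CPM (SD 87.2), a log2 fold change of 1.41 (FDR 6.84e-06). Agrn, the gene of agrin, was 0.74 higher on the log2 scale (FDR 0.000887) and was not called against the contralateral knee (0.31, FDR 0.347), where replicate 1 reached 96.6 CPM. Without replicate 1 it was called there too (FDR 0.0154).

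Genes that build the chain were called as well. Of 12 genes of the linker and chain polymerisation, 5 were higher (list median 0.42). They were Ext1, the catalytic partner of the chain polymerase (73.7 to 99.5 CPM against 34.3 to 47.2 CPM, log2 fold change 1.23, FDR 5.11e-06), its partner Ext2, B4galt7 of the linker, and Xylt2 and Xylt1, which start the linker on the core protein (0.79 and 0.72). Extl2, another enzyme of the list, passed the FDR but not the fold limit against naïve (0.56) and was called against day 1 injured cartilage (0.60, FDR 0.00205). Of 16 genes that modify the chain, 13 could be tested and 2 were higher (list median 0.16), where 10.4% of all genes were called higher. Hs2st1, the 2-O-sulfotransferase, rose to 57.1 CPM (SD 4.10) from 26.2 CPM (SD 1.83), a log2 fold change of 1.14 (FDR 6.1e-08), and Glce, the epimerase, was 0.62 higher (FDR 0.00082). Glce fell under the fold limit without naïve replicate 6 (0.57), without day 7 injured replicate 3 (0.54) and with protein-coding transcripts only (0.45). The 6-O-sulfotransferase Hs6st2 stood at 0.70 to 1.71 CPM in day 7 injured libraries and was called against the contralateral knee (1.28, FDR 0.0326) and not against naïve (0.92, FDR 0.0503), a difference that was not tested. The call of Hs6st2 against the contralateral knee was lost in 5 of 6 fits with a library left out (FDR up to 0.179) and with limma-voom (FDR 0.0611). It was also lost without the filter on low counts (FDR 0.0526), with only the groups compared (FDR 0.0818) and with a transcript length offset (0.43, FDR 0.743). Against naïve, Hs6st2 was called with protein-coding transcripts only (FDR 0.0292), without naïve replicate 2 (FDR 0.0294) and without day 7 injured replicate 2 (FDR 0.0232).

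The supply of sulfate and sugar precursors had 5 of 8 genes higher and the highest median of the pathway lists (0.65). Ugdh, which makes UDP-glucuronic acid, was 0.91 higher (FDR 0.000977), Papss2, which makes the sulfate donor, 0.77 (FDR 8.62e-06) and the sulfate transporter Slc26a2 0.69 (FDR 5.55e-06), and Papss1 and Impad1 were called as well. These genes also serve chondroitin sulfate. Slc35b2, the Golgi transporter of the sulfate donor, missed the fold limit against naïve (0.56) and was called against day 1 injured cartilage (0.61, FDR 0.003). Of 10 genes of chain breakdown, 3 lysosomal ones were higher (list median 0.34), among them Naglu (0.90, FDR 3.2e-06) and Ids (0.60, FDR 6.55e-05), of which Ids lay just above the fold limit and fell under it in 3 fits with a library left out (0.52 without day 7 injured replicate 3, 0.56 and 0.57 without naïve replicates 6 and 5), with all 18 libraries (0.58), with only the groups compared (0.58) and with protein-coding transcripts only (0.47). Neither Sumf1, which activates newly made sulfatases, nor its relative Sumf2 was called (list median 0.34).

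Of 11 tested genes that shed or process core proteins, 3 were higher, although the list median was 0.03. Mmp2 stood at 1197 CPM (SD 195) against 124 CPM (SD 17.8) in naïve libraries (log2 fold change 3.29, FDR 1.81e-09), and Mmp14, a membrane protease that activates its product, at 688 CPM (SD 130) against 98.3 CPM (SD 15.9) (2.82, FDR 4.61e-09). Both groups were apart in each gene. The proprotein convertase Pcsk5 was 1.28 higher (FDR 0.0247), with naïve replicate 5 at 31.6 CPM close to the day 7 injured range of 32.7 to 43.4 CPM, and it lost the call in 2 fits with a library left out (FDR up to 0.0933). Of 9 genes whose products bind the syndecan tail, 3 were higher (list median 0.16), namely the cortical actin regulator Cttn (1.21, FDR 5.38e-06), the scaffold Cask (0.85, FDR 9.72e-07) and Sdcbp2 (1.75, FDR 0.0367). Sdcbp2 was at most 0.824 CPM in any day 7 injured library and lost its call in 6 fits with a library left out.

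Heparin-binding growth factors had 5 of 14 genes higher (list median 0.31). Ptn, which encodes pleiotrophin, stood at 41.2 to 55.9 CPM in day 7 injured and 1.35 to 4.06 CPM in naïve libraries (log2 fold change 4.31, FDR 2.24e-07). Its relative Mdk, which encodes midkine, stood at 12.6 to 17.3 CPM against 1.68 to 3.05 CPM (2.55, FDR 2.88e-07). Fgf18, a growth factor that acts on chondrocytes, was 1.66 higher at a low level of 2.68 to 4.76 CPM (FDR 0.00413), and Hbegf and Fgf7 were called as well. Fgf9 was −0.81 against naïve (FDR 0.0886) and was the only list gene called lower anywhere, against day 1 injured cartilage (−1.11, FDR 0.0448).

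**Figure D4:**
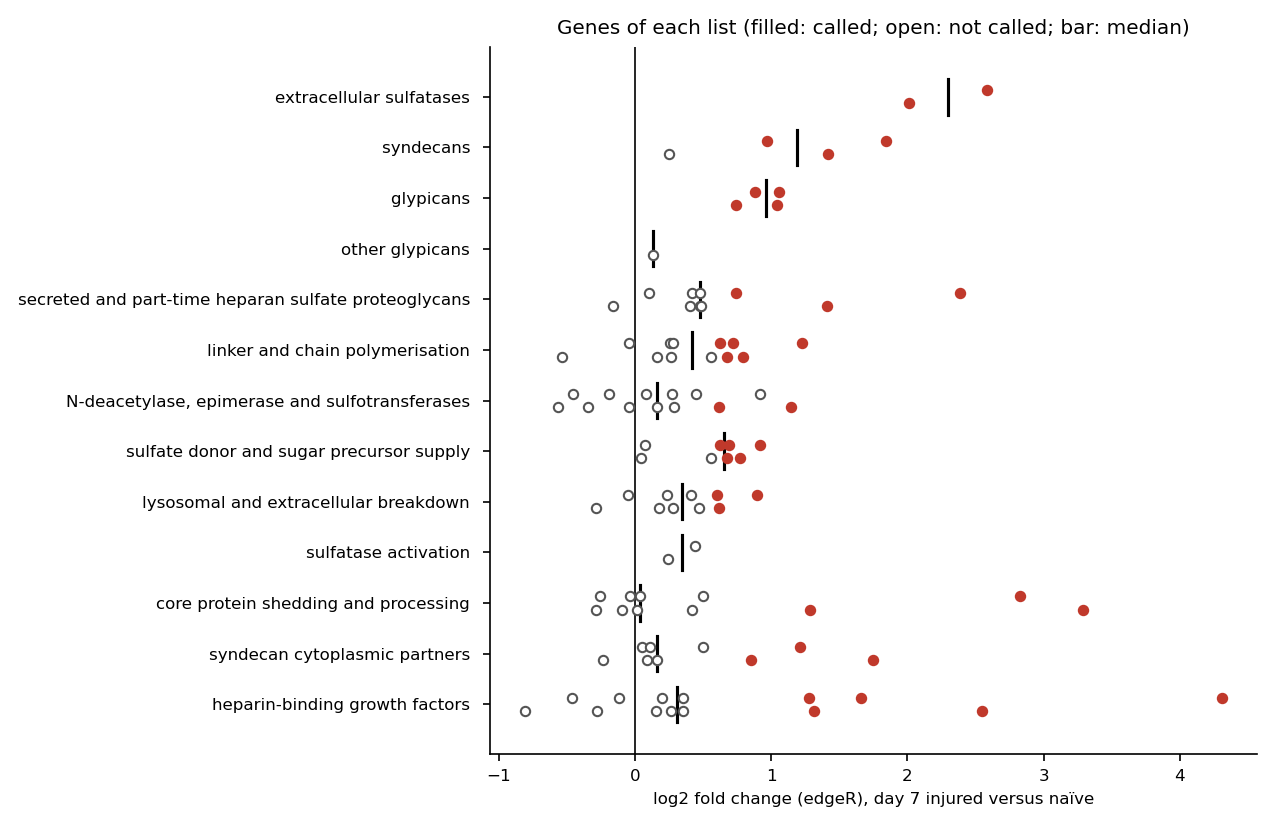
Log2 fold change of every tested sulfatase, syndecan, glypican and pathway list gene in day 7 injured against naïve cartilage (each point is a gene, filled where called, and bars are list medians). The 29 called genes of the pathway lists and the 9 called sulfatases, syndecans and glypicans all lie above 0, and Ptn at 4.31 and Mmp2 at 3.29 lie highest.

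Against the contralateral knee at day 7, 23 of the 90 list genes were called higher and 0 lower, beside 9.33% and 3.23% of all genes tested, and 26 were called without replicate 1. Against day 1 injured cartilage, 26 of the 90 were called higher and 1, Fgf9, lower, beside 9.04% and 6.38% of all genes. In the difference between injury effects at the 2 days, 13 of the 90 were called higher and 0 lower, beside 3.53% and 0.245% of all genes. The 13 became 16 without day 7 contralateral replicate 1, 7 without day 7 injured replicate 3 and 8 without day 1 contralateral replicate 3.

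Genes most like each called gene were found over the 5 group means of log2 CPM, as the root mean square (RMS) of the differences from naïve. For Sulf2 these were Prrx2 (RMS 0.0523), Aebp1 and Mfap5, and 31 genes lay within 0.2. For Sulf1 they were Bnc2 (RMS 0.108), Tacr1 and Nfasc, with 19 genes within 0.2. For Sdc1 they were Pofut2, Fjx1 and Fscn1 (43 genes within 0.2) and for Sdc2 Npdc1, Glis2 and C1s1 (228 genes). The patterns of the weaker changers were common. Those of Sdc4 (Mageh1, Mpzl1, Lrrc75b), Gpc1 (Naglu, Chst2, Itm2c), Gpc3 (Yap1, Entpd2), Gpc4 (Tspan9, Tiam2, Mapk8ip1) and Gpc6 (Cygb, Pde8a, Cth) had 588 to 1228 genes within 0.2.

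Markers of other cell types moved in the same comparison. The fibroblast list summed to 75350.4 CPM (SD 5297) in day 7 injured and 14691 CPM (SD 3447) in naïve libraries, and 8 of its 10 genes were called higher (median 1.71). Its most abundant gene, Col1a1, is also expressed by bone cells. Markers of mural cells summed to 929 CPM against 483 CPM (4 of 6 called higher) and those of endothelial cells to 468 CPM against 299 CPM (4 of 7 called higher). The osteoclast list summed to 1065 CPM (SD 66.9) against 593 CPM (SD 149) without overlap, with 1 of its 6 genes, the collagen-cleaving protease Ctsk, called higher (median 0.52), and to 930 CPM (SD 194) in day 7 contralateral libraries. The list of osteoblasts and osteocytes summed to 769 CPM against 654 CPM with overlapping ranges (1 of 7 called higher and 1 lower). The chondrocyte list summed to 7800 CPM (SD 554) against 5028 CPM (SD 1269), and the ranges overlapped, since naïve libraries reached 7481 CPM. Of this list Acan, Comp, Col11a1 and Sox9 were called higher and Col2a1 was at 0.25 (FDR 0.358). Changes of its other markers are not given here. The part of these and the following cell types in the changes of the sulfatases, syndecans and glypicans was not tested.

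Day 7 contralateral replicate 1 stood apart in these lists too. Its fibroblast list summed to 56578 CPM, of which Col1a1 made up 52440 CPM, its chondrocyte list to 13252 CPM and its erythroid list to 62923 CPM, the last 2 being the highest of all libraries. Of the other lists, the plasma cell list summed to 171 CPM (SD 10.7) in day 7 injured and 148 CPM (SD 23.1) in naïve libraries, with none of its 5 tested genes called higher. The epithelial list summed to 5.22 and 7.51 CPM, and Krt5 and Krt14 had at most 3 counts in every library. Of 8 macrophage markers, 3 passed the FDR and none of these the fold limit. Markers called lower were 3 of 6 for adipocytes, 4 of 7 for erythroid cells, 2 of 7 for neutrophils and marrow myeloid cells and 1 of 5 for B cells.

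**Figure D5:**
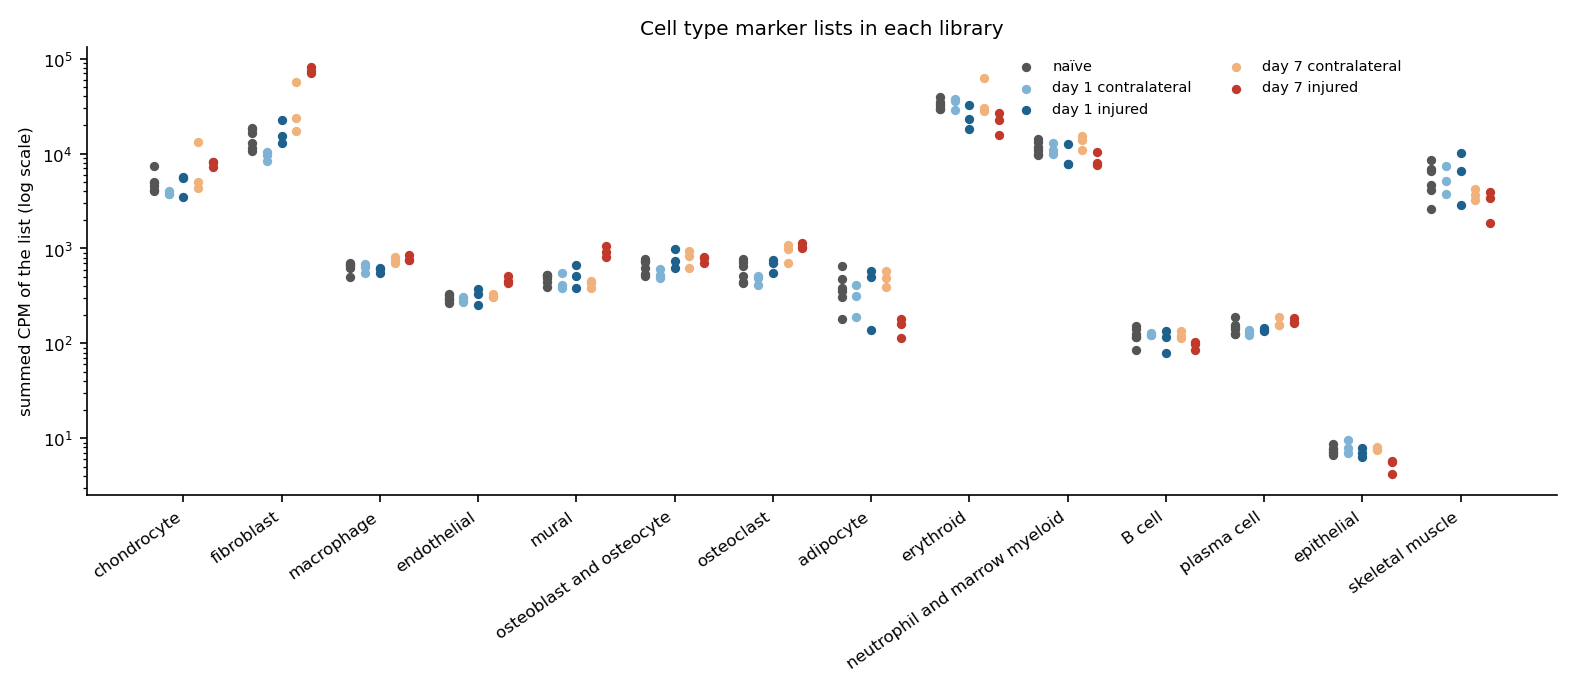
Summed CPM of each list of cell type markers in every library, on a log axis (points are libraries, coloured by group). The fibroblast list is highest in the day 7 injured libraries, and 1 day 7 contralateral library, replicate 1, lies above its group mates for the fibroblast, chondrocyte and erythroid lists.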

How the data were processed

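RNA of ribosome-depleted TruSeq libraries was quantified per transcript by the authors, who trimmed the reads and pseudo-aligned them to the mouse GRCm38 transcriptome with Kallisto. The deposited files give estimated counts and TPM for 137436 transcripts per library, and the effective length in bases, a deposited value used for 1 alternative. The submitters' notes name GRCh38, although the identifiers are those of mouse.

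Identifiers without version were matched to GENCODE (GRCm38) for 135107 transcripts (98.3%). The 2329 others held 0.667% to 3.90% of a library's counts and were left out. Estimated counts were summed per gene and rounded, and TPM were summed per gene. The members and gene lists were chosen with earlier results of these data known.

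The test was edgeR 4.0.16 (R 4.3.3), quasi-likelihood, with TMM scaling, filterByExpr, a mean per group and no covariates. Fits used 15 libraries where the day 7 contralateral group was not compared, and otherwise 18. Standard errors come from the F statistic, and intervals are 95% normal intervals. Replicate numbers follow the order of deposit and pair nothing, so that a block for shared mice, which the study used, could not be set. Named genes are all 10 members, the 3 largest called changes in each direction of each pathway list, up to 2 list genes called only elsewhere, the most abundant marker of each list, and the 3 genes most like each called member. Further list genes were named with their list after their values were seen, and some genes that these rules name are not reported here. The test was checked on simulated counts. DESeq2 1.42.0, limma 3.58.1, other scaling, filters and transcripts, and each library left out were the alternatives. The floor of 3 counts covers counting error only.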

Additional observations from a re-analysis of the deposited data

Results flagged for a closer look

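In the 6 naïve libraries, 12 of 64 groups of values had a library far from the others. Chance alone flags about 1 group in 20 where groups are independent. These groups come from the same libraries and partly from the same genes, so their number cannot be set against that rate. Naïve replicate 5 was high for Sulf1 (64.0 CPM, others 30.1 to 40.6), Sdc1 (49.02 CPM, others 22.6 to 30.0), Col18a1 (73.3 CPM, others 25.9 to 36.0), Ext1 (47.2 CPM, others 34.3 to 36.8), Xylt2 (13.1 CPM, others 8.69 to 10.2) and Pcsk5 (31.6 CPM, others 10.1 to 13.8). Sdc1 made up 17.1% of the summed syndecan TPM there, against 9.79% to 11.6% in the other naïve libraries. Naïve replicate 6 was high for Agrn (67.0 CPM, others 42.03 to 50.2) and low for the share of Gpc6 among the glypicans (5.96%, others 7.92% to 8.84%). Naïve replicate 3 had the highest summed glypican TPM (43.7, others 27.5 to 31.8) and the highest chondrocyte marker sum (7481 CPM, others 4016 to 5068). Naïve replicate 1 had the lowest macrophage marker sum (498 CPM, others 627 to 703). With naïve replicate 5 left out, 9 of the 10 genes were called in day 7 injured against naïve cartilage, the same number as with it.

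The effect of injury at day 7 differed from that at day 1 by edgeR's test of the difference for 3 of the 10 genes and for some of the named pathway genes, where 3.53% of all genes were called higher and 0.245% lower. Most of those pathway genes were named for their change in day 7 injured against naïve cartilage, which uses the same injured libraries. With day 7 contralateral replicate 1 included, the differences on the log2 scale were 2.26 for Sulf1, 2.56 for Sulf2 and 0.99 for Sdc2. Among the pathway genes they were 4.10 for Ptn, 2.50 for Mdk, 2.47 for Mmp2, 2.37 for Col18a1, 2.02 for Mmp14, 1.17 for Hspg2, 0.99 for Ext1, 0.98 for Cttn, 0.77 for Hs2st1, 0.76 for Cask and 0.67 for Xylt1. The 2 days also differ in the number of mice pooled per library (2 and 4 by the schematic of the study's design), which cannot be told apart from the day.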

How the results depend on the processing

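Of 1270 values of the 10 genes under 26 alternatives, 1197 kept their direction and their side of the threshold. Counts of the 10 genes called moved by over 1.5 times once, in the difference between injury effects, where DESeq2's Wald test called 6 genes instead of 3, adding Sdc1, Gpc4 and Gpc6, while over all genes it called 979 higher and 160 lower instead of 750 and 52. Leaving out 1 library each gave 8 to 9 called genes against naïve, 6 to 8 against the day 7 contralateral knee, 8 against day 1 injured cartilage and 2 to 4 in that difference. Pathway list genes called with the FDR limit alone were 45 instead of 29 against naïve and 42 instead of 27 against day 1 injured cartilage, and in the difference between injury effects 6 instead of 13 at an FDR of at most 0.01 and 7 to 16 with a library left out, 7 without day 7 injured replicate 3 and 8 without day 1 contralateral replicate 3. Sdc4 was called against the day 7 contralateral knee with limma-voom (FDR 0.0379) and with protein-coding transcripts only (FDR 0.0266), and Gpc3 with DESeq2 (FDR 0.0238) and with only the groups compared (FDR 0.00892).

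Sign changes, 51 in all and up to 0.48 in size on the log2 scale, were between values that were not called. Sdc1, day 1 contralateral against naïve (0.01), was −0.027 with limma-voom, −0.021 with a length offset and −0.48 to 0.22 with a library left out. Sdc2, day 7 contralateral against naïve (−0.0041), was 0.0122 with DESeq2's size factors, 0.0123 with its Wald test and 0.0120 with limma-voom, 0.0015 without the filter on low counts and −0.070 to 0.046 with a library left out. Gpc3 in that comparison (−0.03) was 0.00076 with limma-voom and −0.17 to 0.068 with a library left out, and Gpc4 (0.01) was −0.026 with protein-coding transcripts only and −0.048 to 0.092 with a library left out. Sdc3 in the difference between injury effects (0.05) was −0.024 with protein-coding transcripts only and −0.051 to 0.18 with a library left out. With a library left out, ranges that cross 0 were also those of Sdc4 in day 7 contralateral against naïve (−0.14 to 0.58), Sulf1 in day 1 contralateral against naïve (−0.45 to 0.092), Sdc1 and Sdc3 between the knees at day 1 (−0.10 to 0.61 and −0.086 to 0.13), and, in day 1 injured against naïve, Sdc1 (−0.080 to 0.32), Sdc2 (−0.085 to 0.17), Gpc1 (−0.080 to 0.13), Gpc3 (−0.071 to 0.56), Gpc4 (−0.016 to 0.19) and Gpc6 (−0.14 to 0.067). The cause of these changes was not tested.

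No paired analysis was possible because the labels do not say which libraries came from the same mice. Of 809 values of named list genes, 47 lost and 20 gained a call, and none changed sign. Gpc3, with 50 to 205 counts per library, had the largest standard error of the 10 genes in day 7 injured against naïve cartilage (0.308 on the log2 scale).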

Other observations

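Naïve replicate 5, day 1 contralateral replicate 3 and day 1 injured replicate 2 had the highest Sulf1 and Sdc1 of their groups. Sulf1 stood at 64.0, 54.1 and 57.6 CPM in them and Sdc1 at 49.02, 48.6 and 42.7 CPM. The same libraries had the lowest sums of adipocyte markers (181, 191 and 139 CPM) and of skeletal muscle markers (2613, 3767 and 2862 CPM) of their groups. The day 7 knees differed from this: injured replicate 3 had the highest Sulf1 and Sdc1 and the lowest adipocyte sum (115 CPM) of its group but not the lowest muscle sum (3396 CPM, against 1846 CPM in replicate 2), and among contralateral libraries Sulf1 was highest in replicate 3 (34.9 CPM) and Sdc1 in replicate 1 (53.5 CPM). This pattern was chosen after its values were seen, and its part in the differences between groups was not tested.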
